A study of Mus musculus with 7 samples.

Results

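The replication-dependent histone genes encode the histone proteins that package newly copied DNA, and 58 of them were measured in mouse brain cells that had been sorted for HopX at 3 stages. Members were the rows of the expression table named Hist1h to Hist4h that reached at least 1 TPM (transcripts scaled to a fixed total per library) in at least 2 of the 7 libraries. Of the 24978 rows of the table, 63 carried such a name and 58 passed. The members comprised 5 linker histone H1 genes, 17 H2a genes, 16 H2b genes, 9 H3 genes and 11 H4 genes. They lie in the Hist1 cluster on chromosome 13 (46 members), the Hist2 cluster on chromosome 3 (8), the Hist3 cluster on chromosome 11 (3) and at Hist4h4 on chromosome 6. No member shared all of its values with another row. GENCODE annotates 55 as protein coding and 3 as pseudogenes (Hist1h2aj, Hist1h2al and Hist3h2bb-ps).

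The cells came from C57BL/6 mice and were labelled neural progenitor cells. The libraries were from embryonic day 15 (E15, replicates 1 and 2), postnatal day 3 (P3, replicates 1 and 3) and adult brain (replicates 1, 2 and 3), and every group was selected in the same way, by HopX. The labels name no brain region, no reporter allele and no separate animals. Region and stage therefore cannot be told apart, and the p-values cover the spread among these libraries alone, which may be technical.

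Each nucleosome holds a pair of each of the core histones H2A, H2B, H3 and H4, and the linker histone H1 binds where DNA enters and leaves it. Cells make most of these proteins in S phase, when histone genes are switched on through NPAT and their transcripts are cut just after a short stem-loop that binds the protein SLBP. Such transcripts carry no poly(A) tail and are degraded when DNA synthesis ends, while some histone genes also give longer polyadenylated transcripts, which are known from differentiated cells. The sources used here do not give how RNA was selected for these libraries, so the share of each form that the TPM values hold is unknown.

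The stem-loop that names the class was found in annotated GENCODE transcripts of 36 of the 58 members, and 22 members had none there. Several of the 22 had short annotated transcripts, such as Hist1h2ai at 393 bases, Hist1h2bl at 381 and Hist1h4k at 312. Such transcripts may end before a stem-loop, so its absence there need not hold for the gene. The search used a single pattern with few variable bases, and the 16 bases had 5 versions among its matches. The version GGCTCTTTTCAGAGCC was found in 22 members of the H1, H2a, H2b and H3 classes, and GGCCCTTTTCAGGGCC was found in 6 H4 members. The first version is shown for the most abundant member at E15 and for 3 members with higher values in the adult, and the H4 version is shown for the leading H4 member. Capitals mark the stem-loop and lower case its flanks, 5′ to 3′, written as DNA.

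Hist1h2ap: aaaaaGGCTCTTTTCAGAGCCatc

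Hist1h1c: caaaaGGCTCTTTTCAGAGCCaccactccc

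Hist2h2aa1: aaaaaGGCTCTTTTCAGAGCCacccactga

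Hist2h3c1: acaaaGGCTCTTTTCAGAGCCaccacagct

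Hist1h4d: ccaaaGGCCCTTTTCAGGGCCactaccttc

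The annotated transcript of Hist1h2ap ended 3 bases after the stem-loop. That of Hist1h1c continued for 840 bases and that of Hist2h3c1 for 1162 bases, and both held the polyadenylation signal AATAAA within their last 60 bases. Hist2h2aa1 continued for 35 bases. Hist1h2bc, the most abundant member in the adult, had an annotated transcript of 1156 bases in which no stem-loop was found. Neither Hist2h2aa1 nor Hist1h2bc held AATAAA within the last 60 bases.

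RefSeq promoters (GRCm38.p6) were matched for 50 of the 58 members and searched over 300 bases, on both strands, for short motifs known from histone genes. CCAAT occurred in 43 of the 50 (86%), against 37.4% of all 32851 promoters in the table, and TATAAA in 28 (56%), against 13.6%. The octamer ATTTGCAT occurred in 6 of 15 H2a and 4 of 13 H2b promoters and in no promoter of another class, against 1.74% of all promoters. AAACACAA, known from H1 genes, occurred in 3 of 5 H1 promoters, against 1.93% of all. GGTCCG, a core of the H4 promoter, occurred in 9 of 10 H4 promoters and in no other member, against 8.25% of all. A match is a description of these letters only.

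The 150 bases before the start are printed for an H1 gene that was lower and one that was higher in the adult, for a divergent H2a and H2b pair that shares its octamer, and for Hist1h4d. They lie on GRCm38.p6 at chr13:21780626-21780775 on the minus strand (Hist1h1b), chr13:23738657-23738806 on the plus strand (Hist1h1c), chr13:23571221-23571370 on the minus strand (Hist1h2ae), chr13:23571250-23571399 on the plus strand (Hist1h2bg) and chr13:23581418-23581567 on the plus strand (Hist1h4d). Capitals mark the motifs above, and a motif on the other strand appears as its reverse complement. In the printed stretches no motif overlaps another.

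Hist1h1b: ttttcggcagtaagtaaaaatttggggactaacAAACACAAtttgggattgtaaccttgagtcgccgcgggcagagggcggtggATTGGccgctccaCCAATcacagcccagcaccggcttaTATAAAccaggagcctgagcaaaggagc

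Hist1h1c: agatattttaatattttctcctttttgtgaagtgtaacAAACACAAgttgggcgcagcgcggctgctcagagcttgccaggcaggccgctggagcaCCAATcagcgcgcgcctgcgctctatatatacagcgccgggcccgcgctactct

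Hist1h2ae: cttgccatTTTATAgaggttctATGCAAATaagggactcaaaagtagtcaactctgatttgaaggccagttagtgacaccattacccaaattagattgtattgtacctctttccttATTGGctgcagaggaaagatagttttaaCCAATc

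Hist1h2bg: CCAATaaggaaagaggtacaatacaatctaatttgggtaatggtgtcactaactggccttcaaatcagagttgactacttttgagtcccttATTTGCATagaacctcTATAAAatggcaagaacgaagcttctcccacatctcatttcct

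Hist1h4d: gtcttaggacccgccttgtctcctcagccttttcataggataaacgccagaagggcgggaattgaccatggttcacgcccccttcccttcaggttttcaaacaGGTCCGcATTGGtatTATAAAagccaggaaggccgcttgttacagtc

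Both H1 promoters held AAACACAA and CCAAT, and Hist1h1c held no TATAAA in the searched window. CCAAT was present in all 3 matched promoters of members higher in the adult than at E15 and in 29 of 32 matched promoters of members that were lower.

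TPM is scaled to the same total in each library and to transcript length, but it keeps no depth and no counting error could be set. Comparing levels of different genes rests on the transcript lengths and the sharing of reads in the authors' counting, which are unknown here. Library totals lay between 998450 and 999193. Hopx was at 62.9 and 60.5 TPM in E15 cells, 171 and 112 TPM in P3 cells and 220, 249 and 230 TPM in adult cells. Sox2, Vim, Fabp7 and Slc1a3, which mark neural progenitors and radial glia, were above 20 TPM in every library, and Nes, another progenitor marker, was at 1.69, 0.321 and 1.13 TPM in adult cells. The summed level of 6 astrocyte markers was 732 and 575 TPM in E15 cells, 4223 and 2799 TPM in P3 cells and 12218, 11795 and 10603 TPM in adult cells. The sum of 6 immature neuron markers was 1783 and 2051 TPM in E15 cells, 222 and 1079 TPM in P3 cells and between 63.4 and 96.6 TPM in adult cells, so that the P3 libraries stood apart from each other. The sum of 5 ependymal markers was 8.86 and 16.2 TPM in E15 cells, 418 and 289 TPM in P3 cells and 205 to 282 TPM in adult cells, where Rarres2 made up most of it. Tmem212 was at 46.7 and 62.0 TPM in P3 cells and at or under 0.250 TPM elsewhere, and Foxj1 was under 1 TPM in every library. In the adult, 6 microglia markers summed to 266 to 335 TPM and 6 oligodendrocyte markers to 585, 79.7 and 405 TPM, with Mog and Cldn11 at 0 in adult replicate 2. E15 replicate 1 alone had high haemoglobin, with Hba-a2 at 1676 TPM. The part of these differences in the histone results was not tested.

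Histone transcripts as a whole were highest at E15 and lowest in the adult. The 58 members summed to 3562 and 3585 TPM in E15 cells, 1646 and 1848 TPM in P3 cells and 860.1, 1129.8 and 837 TPM in adult cells. The 3 stages did not overlap, and the ratio of means was 0.489 for P3 over E15, 0.54 for the adult over P3 and 0.264 for the adult over E15. In sorted bulk cells, fewer cells in S phase and less histone RNA per cell cannot be told apart.

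The total was carried by a few genes. Hist1h2ap made up 42.8% of it at E15, 39.5% at P3 and 9.21% in the adult. Without Hist1h2ap the sum averaged 2046 ± 62.0 TPM in E15 cells, 1057 ± 99.0 TPM in P3 cells (SD, n = 2 each) and 852 ± 114 TPM in adult cells (SD, n = 3). Without the 4 members most abundant at E15 (Hist1h2ap, Hist1h4d, Hist1h2ao and Hist1h2ae), it averaged 716 ± 83.8 TPM in adult cells (SD, n = 3), above the 582 ± 56.0 TPM in P3 cells and below the 938 ± 4.86 TPM in E15 cells (SD, n = 2 each), and no library of one stage overlapped with those of another. These 4 were picked by their E15 values, while Hist1h2bc, at a mean of 310 TPM in the adult and 102 TPM at P3, was kept. The order of P3 and the adult thus depends on which members are left out.

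The class sums differed in their course. The H2a sum was 2504 and 2511 TPM in E15 cells, 1027 and 1147 TPM in P3 cells and 241, 434 and 294 TPM in adult cells, so that each stage lay wholly below the one before. The H4 sum had the same order, with 585 and 598 TPM in E15 cells, 253 and 310.1 TPM in P3 cells and 143, 188 and 117 TPM in adult cells. The H3 sum was 39.6 and 31.8 TPM in E15 cells, 11.3 and 18.3 TPM in P3 cells and 9.51, 9.91 and 9.55 TPM in adult cells, the lowest level of the core classes at every stage.

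The H2b sum instead was 341 and 368 TPM in E15 cells, 297 and 312 TPM in P3 cells and 399, 458 and 352 TPM in adult cells. Every adult library lay above both P3 libraries, and the adult overlapped with E15. Hist1h2bc held 310 of the 403 TPM that this sum averaged in the adult, 102 of 305 TPM at P3 and 68.3 of 355 TPM at E15. Most of the class went the other way, with a negative log2 difference for 13 of 16 members in the adult against E15. The H1 sum was 92.2 and 75.3 TPM in E15 cells, 56.6 and 60.2 TPM in P3 cells and 67.0, 40.5 and 64.5 TPM in adult cells, with overlap between the later stages. Hist1h1c held 44.7 of the 57.3 TPM that the H1 sum averaged in the adult, while 4 of the 5 H1 members fell against E15. As a share of all member TPM, H2a averaged 70.2% at E15, 62.3% at P3 and 33.8% in the adult, and H2b averaged 9.93% at E15, 17.5% at P3 and 43.0% in the adult. Hist1h2bc alone made up 1.91% at E15, 5.90% at P3 and 32.9% in the adult.

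**Figure D1:**
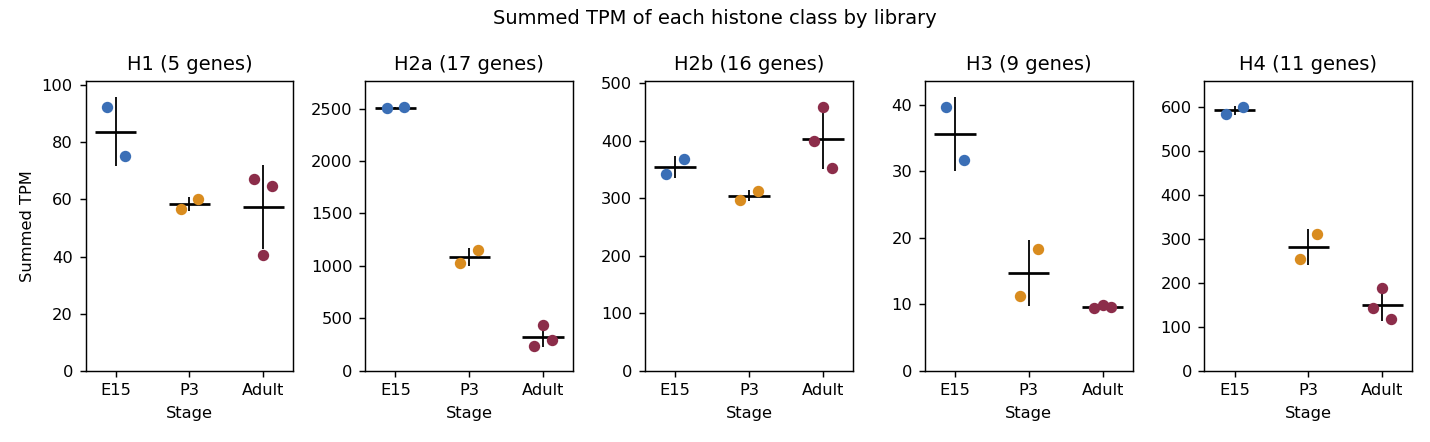
Summed TPM of the members of each histone class (y axis, from 0, own scale per panel) at E15, P3 and adult stage; points are libraries, horizontal bars are means and vertical lines are SD. H2a and H4 are lower at each later stage, while the adult H2b libraries, at 352 to 458 TPM, lie above the P3 libraries, at 297 and 312 TPM. Hist1h2bc alone averaged 310 TPM in the adult and 102 TPM at P3. In the adult against E15, 13 of 16 H2b members had a negative log2 difference.

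By cluster, the Hist1 members summed to 3267 and 3229.7 TPM in E15 cells, 1517 and 1632 TPM in P3 cells and 668, 911 and 673 TPM in adult cells. The Hist2 members were highest in the adult, with 66.7 and 52.2 TPM in E15 cells, 60.2 and 43.4 TPM in P3 cells and 129, 143 and 93.3 TPM in adult cells, where each library lay above all 4 earlier ones. That sum was carried by Hist2h2aa1, Hist2h2aa2 and Hist2h3c1, while the other 5 of the 8 Hist2 members had lower means in the adult than at E15 and the median log2 difference of the 8 was -0.28. The Hist3 members summed to 223 and 299 TPM in E15 cells, 66.4 and 169.5 TPM in P3 cells and 61.1, 72.2 and 65.1 TPM in adult cells, with overlap between the adult and P3.

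Detection followed the same course. At least 1 TPM was reached by 55 and 57 members in E15 cells, 40 and 48 in P3 cells and 28, 26 and 29 in adult cells. In the adult, 29, 30 and 22 of the 58 members were listed at exactly 0, which is 50%, 51.7% and 37.9% of members, against 8.30%, 7.61% and 6.68% of all 15931 genes tested. In all 3 adult libraries at once, 20 members (34.5%) were at 0, against 2.57% of genes tested. An exact 0 can be a failed estimate in such a table. Of the members, 2 (Hist1h2ac and Hist1h3a) passed the 1 TPM rule only through the E15 libraries, none only through the adult ones, and 22 were below 1 TPM in every adult library.

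**Figure D2:**
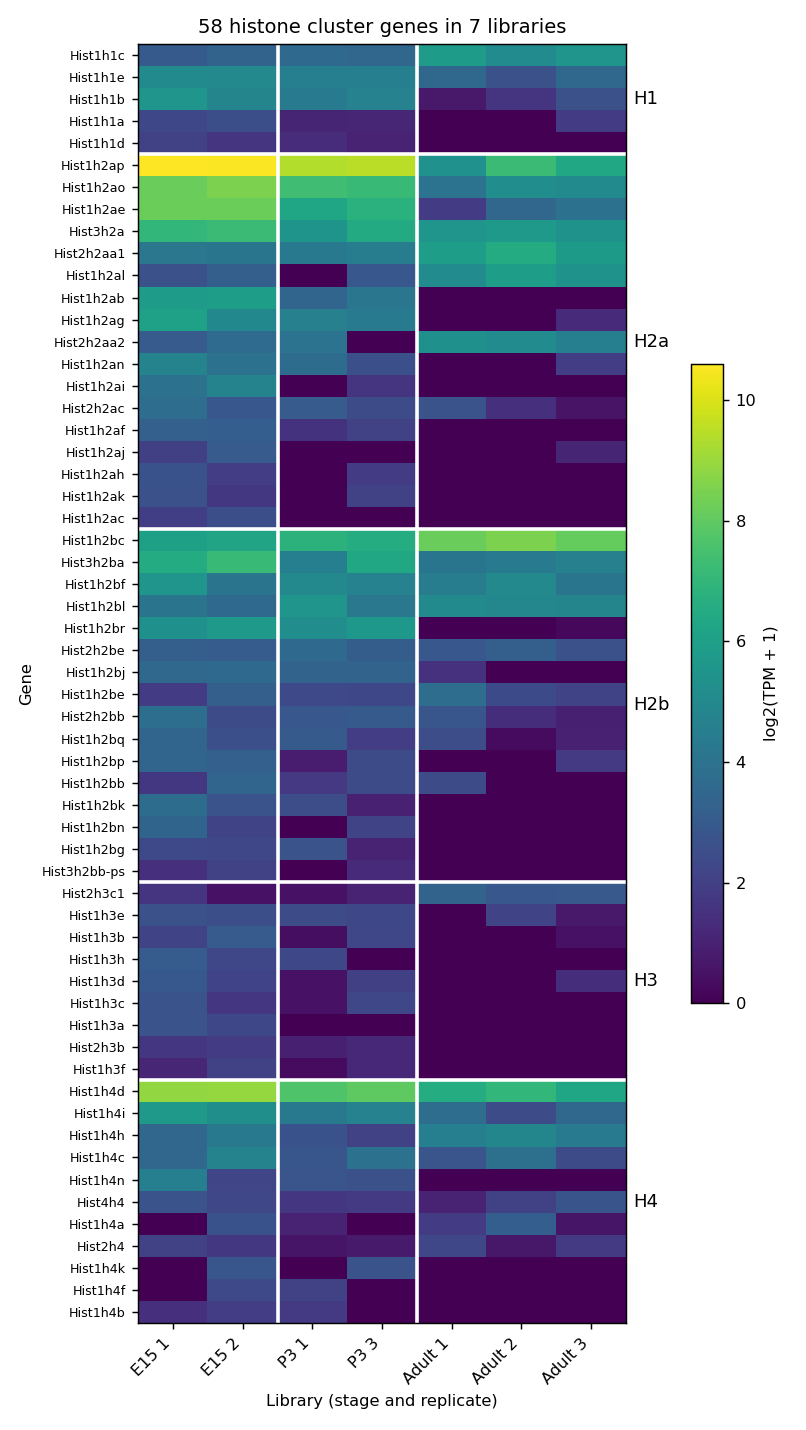
Level of each of the 58 members (rows, by class and then by mean TPM) in the 7 libraries (columns, E15, P3 and adult), as log2(TPM + 1) by colour. The darkest cells are members at or near 0, which number 22 to 30 per adult library at exactly 0, and Hist1h2bc is the brightest row in the adult.

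Just inside the 1 TPM rule was Hist1h3f, with 1.19 and 3.09 TPM in E15 cells, 0.250 and 1.34 TPM in P3 cells and 0 in the adult. Just outside it were Hist1h3g, Hist1h3i, Hist1h4j, Hist1h4m and Hist2h3c2, each of which reached 1 TPM in a single library. Of these, Hist1h4m was at 6.79 TPM in adult replicate 3 and at 0 elsewhere.

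The test was limma on log2(TPM + 1) over all genes tested, with a Benjamini-Hochberg adjusted p under 0.05. At P3 against E15, 6 members fell, none rose and 52 did not pass. Of the 6, Hist1h2ac and Hist1h3a passed the 1 TPM rule only through the E15 libraries, so their direction was set by it. Across all genes tested, 6.63% passed in either direction, 1.08% fell and 5.56% rose. The median log2 difference of the members was -0.91, against -0.15 over all genes, and was -0.81 over the 55 members that were not at 0 throughout a stage. Every P3 library lay below every E15 library for 31 members and above for 4, against 37.2% and 25.3% of all genes tested.

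Set against P3, 6 members rose in the adult, 17 fell and 35 did not pass. Of the 17, 7 were at 0 in every adult library. They passed the 1 TPM rule only through earlier libraries and could not have risen. Across all genes tested, 22.2% passed, 8.39% rose and 13.8% fell. The median log2 difference of members was -1.06, against -0.13 over all genes. Every adult library lay above every P3 library for 7 members and below for 22, against 19.9% and 29.2% of genes tested.

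Over the whole span, in the adult against E15, 5 members rose, 36 fell and 17 did not pass. The 36 include Hist1h2ac and Hist1h3a, whose direction was set by the 1 TPM rule. With these 2, 18 of the 36 were at 0 in every adult library and so could not have risen. In all, 22 members were below 1 TPM in every adult library and passed the rule only through earlier libraries. Across all genes tested, 40.1% passed, 15.4% rose and 24.7% fell. The median of members was -1.83, against -0.30 over all genes, and -1.77 over the 38 members not at 0 throughout a stage. Every adult library lay above every E15 library for 8 members and below for 39, against 22.3% and 38.8% of genes tested. The comparisons share libraries, and over the 3 of them 42 members passed at least once.

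The counts depended on single libraries. At P3 against E15, 2 members were called without E15 replicate 1, 1 without E15 replicate 2, 2 without P3 replicate 1 and 10 (1 higher and 9 lower) without P3 replicate 3. For the adult against P3, 13 were called without P3 replicate 3, and in the adult against E15, 26 were called without E15 replicate 2.

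**Figure D3:**
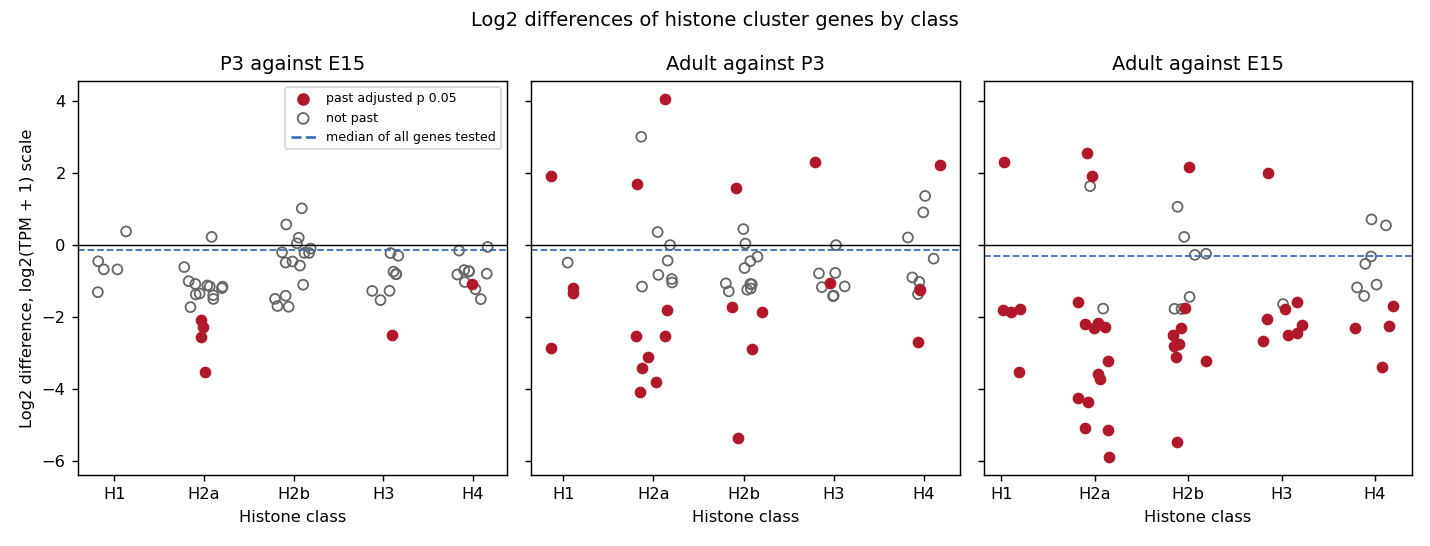
Log2 differences on the log2(TPM + 1) scale (y axis) of the members of each class (x axis, spread sideways for visibility) in 3 comparisons; filled points passed an adjusted p of 0.05 in limma, open points did not, and the dashed line is the median of all genes tested. Fallers outnumber risers in each panel, with 6, 17 and 36 lower, against 1.08%, 13.8% and 24.7% of all genes tested. H4 has the fewest called members for its size in the adult against E15, at 4 of 11 (36.4%), all lower. Of all genes tested, 24.7% were lower there and 40.1% called in either direction.

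Among the linker histone genes, which encode the H1 subtypes, 1 of 5 rose and 4 fell in the adult against E15. Of all genes tested, 15.4% rose and 24.7% fell. Hist1h1c was at 7.02 and 9.41 TPM in E15 cells, 11.4 and 10.4 TPM in P3 cells and 55.4, 33.2 and 45.6 TPM in adult cells. All adult libraries lay above all earlier ones, and the log2 difference was 1.91 (SE 0.29) against P3 and 2.29 (SE 0.29) against E15 (limma, Benjamini-Hochberg adjusted p = 0.00295 and 0.000517). At P3 against E15 its log2 difference was 0.38 and did not pass.

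Hist1h1b went the opposite way, with 45.7 and 27.8 TPM in E15 cells, 19.5 and 24.7 TPM in P3 cells and 0.630, 2.12 and 5.19 TPM in adult cells. The stages did not overlap, and the log2 difference of the adult was -2.86 (SE 0.53) against P3 and -3.54 (SE 0.53) against E15 (limma, Benjamini-Hochberg adjusted p = 0.00732 and 0.00128). Its call against P3 was lost without either P3 library (limma, Benjamini-Hochberg adjusted p = 0.0512 and 0.0969).

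Hist1h1e was at 32.2 and 31.2 TPM in E15 cells, 23.0 and 22.9 TPM in P3 cells and 10.9, 5.16 and 11.1 TPM in adult cells. Its adult libraries were the lowest, with a log2 difference of -1.32 (SE 0.34) against P3 and -1.77 (SE 0.34) against E15 (limma, Benjamini-Hochberg adjusted p = 0.0252 and 0.00399). Against P3 its call was lost without E15 replicate 1 or 2 or P3 replicate 1 or 3, with an adjusted p between 0.0664 and 0.153 in limma with Benjamini-Hochberg adjustment. In the annotation it overlaps Hist1h2be on the same strand, so reads of the pair may not be told apart.

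Hist1h1d, at 3.26 and 2.11 TPM in E15 cells and 1.54 and 1.04 TPM in P3 cells, was listed at 0 in every adult library and fell against P3 and E15 (limma, Benjamini-Hochberg adjusted p = 0.0383 and 0.00325). Its call against P3 was lost in 9 of the 18 alternatives that tested it, among them without either P3 library or any adult library (limma, Benjamini-Hochberg adjusted p from 0.0653 to 0.132). Hist1h1a was at 3.95 and 4.77 TPM in E15 cells, 1.12 and 1.20 TPM in P3 cells and 0, 0 and 2.67 TPM in adult cells. It fell against E15 (limma, Benjamini-Hochberg adjusted p = 0.0395), a call lost in 12 of 18 alternatives, among them without any one library other than adult replicate 3 (adjusted p from 0.0769 to 0.192).

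In the H2a class, 13 of 17 members fell and 2 rose in the adult against E15, and 4 fell at P3 against E15. The matching shares of all genes tested were 24.7% lower and 15.4% higher in the adult and 1.08% lower at P3. Hist1h2ap was at 1559.7 and 1495 TPM in E15 cells, 659 and 720.5 TPM in P3 cells and 40.8, 151 and 80.1 TPM in adult cells. It was the most abundant member at E15 and at P3, and its stages did not overlap. Its log2 difference was -3.11 (SE 0.43) in the adult against P3 and -4.25 (SE 0.43) against E15 (limma, Benjamini-Hochberg adjusted p = 0.00225 and 0.00019), and at P3 against E15 it was -1.15 and did not pass.

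Hist1h2ao was at 286 and 366 TPM in E15 cells, 162 and 144 TPM in P3 cells and 15.3, 35.3 and 31.9 TPM in adult cells. It shared 93.5% of its 50-base stretches with other genes, and Hist1h2ap shared 93.1%, so the authors' counting could split reads among copies. Their sum, which such a split between the pair would not move, was 1845 and 1861 TPM in E15 cells, 820.1 and 864 TPM in P3 cells and 56.0, 186 and 112 TPM in adult cells. Hist1h2ao had a log2 difference of -2.51 (SE 0.33) in the adult against P3 and -3.59 (SE 0.33) against E15 (limma, Benjamini-Hochberg adjusted p = 0.00175 and 0.000121).

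Hist1h2ae was at 298 and 301 TPM in E15 cells, 74.8 and 108 TPM in P3 cells and 2.54, 10.2 and 14.9 TPM in adult cells. The stages were far apart, with a log2 difference of -3.41 (SE 0.55) in the adult against P3 and -5.13 (SE 0.55) against E15 (limma, Benjamini-Hochberg adjusted p = 0.00399 and 0.000242). Without P3 replicate 3 the call against P3 was lost (limma, Benjamini-Hochberg adjusted p = 0.0724). Its difference at P3 against E15 was -1.72 and did not pass.

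Hist1h2ab was called lower in all 3 comparisons. It was at 56.8 and 59.2 TPM in E15 cells and 9.95 and 17.1 TPM in P3 cells, and was listed at 0 in all 3 adult libraries. It fell at P3 against E15 by 2.07 on the log2 scale (SE 0.37), and in the adult against P3 and against E15 (limma, Benjamini-Hochberg adjusted p = 0.0144, 0.000369 and 1.2e-05). Leaving out E15 replicate 1, E15 replicate 2 or P3 replicate 1 ended the call at P3, with log2 differences of -2.10, -2.04 and -1.71. Both calls in the adult were kept in every alternative. With 0 throughout the adult the gene could not have risen there, so this adds no support.

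The other H2a members called lower at P3 were Hist1h2ai, Hist1h2ac and Hist1h2aj. Of these, Hist1h2ac passed the 1 TPM rule only through the E15 libraries, so its direction was set by that rule. Hist1h2ai was at 14.9 and 25.5 TPM in E15 cells, 0 and 2.14 TPM in P3 cells and 0 in the adult, with a log2 difference of -3.53 at P3 (SE 0.57, limma, Benjamini-Hochberg adjusted p = 0.00928). Hist1h2ac was at 2.93 and 4.93 TPM in E15 cells and the pseudogene Hist1h2aj at 3.06 and 7.34 TPM, and both were at 0 at P3 (limma, Benjamini-Hochberg adjusted p = 0.0101 and 0.0279). Hist1h2aj lost this call without any one of the E15 or P3 libraries (adjusted p from 0.0659 to 0.215), Hist1h2ai without either E15 library or P3 replicate 1 (from 0.06 to 0.116) and Hist1h2ac without E15 replicate 2 or P3 replicate 1 (0.0555 and 0.0758, all in limma with Benjamini-Hochberg adjustment). All 3 were lower in the adult against E15 too, and Hist1h2aj lost that call without E15 replicate 2 (adjusted p = 0.073).

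Of the other H2a genes that were lower in the adult, Hist1h2ag was at 65.7 and 30.1 TPM in E15 cells, 23.7 and 19.9 TPM in P3 cells and 0, 0 and 1.49 TPM in adult cells. Its adult libraries lay below all others, with a log2 difference of -4.07 (SE 0.51) against P3 and -5.07 (SE 0.51) against E15 (limma, Benjamini-Hochberg adjusted p = 0.00142 and 0.000173). Hist1h2an was at 25.7 and 14.97 TPM in E15 cells, 12.5 and 5.02 TPM in P3 cells and 0, 0 and 2.78 TPM in adult cells, with a difference of -3.73 (SE 0.66) against E15 (limma, Benjamini-Hochberg adjusted p = 0.0029). Its call against P3 was lost in 10 of 19 alternatives, among them without any library other than adult replicate 3 (adjusted p from 0.0619 to 0.2), and its call against E15 was lost without E15 replicate 1 (0.0522).

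Hist1h2af, Hist1h2ah and Hist1h2ak, all under 10 TPM in E15 cells, were at 0 in every adult library and fell against E15 (limma, Benjamini-Hochberg adjusted p = 0.000226, 0.012 and 0.0211). Hist1h2af also fell against P3, where it was at 1.97 and 3.18 TPM (adjusted p = 0.00751, and 0.0632 without P3 replicate 3). Without E15 replicate 1 the adjusted p against E15 was 0.107 for Hist1h2ah and 0.163 for Hist1h2ak, and without E15 replicate 2 it was 0.0623 for Hist1h2ak.

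Hist3h2a, outside the large cluster, was at 130.4 and 151 TPM in E15 cells, 43.4 and 89.6 TPM in P3 cells and 44.9, 52.0 and 41.7 TPM in adult cells. The adult lay below E15 and overlapped with P3, and only the difference against E15 passed, at -1.59 (SE 0.29, limma, Benjamini-Hochberg adjusted p = 0.00344, and 0.0525 without E15 replicate 2). It overlaps Trim17 on the same strand in the annotation.

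The H2a risers were Hist2h2aa1 and Hist1h2al. Hist2h2aa1 was at 17.2 and 16.2 TPM in E15 cells, 18.3 and 21.3 TPM in P3 cells and 58.5, 90.3 and 54.3 TPM in adult cells. All adult libraries lay above all others, with a log2 difference of 1.69 (SE 0.26) against P3 and 1.92 (SE 0.26) against E15 (limma, Benjamini-Hochberg adjusted p = 0.00347 and 0.000815). Its near-identical neighbour Hist2h2aa2, which shares 100% of its 50-base stretches with other genes, was at 7.30 and 12.1 TPM in E15 cells, 15.3 and 7.26e-07 TPM in P3 cells and 39.4, 34.1 and 23.1 TPM in adult cells, and did not pass in any comparison, with a log2 difference of 3.01 (SE 0.96) in the adult against P3 (limma, Benjamini-Hochberg adjusted p = 0.0572). The pair summed to 24.5 and 28.3 TPM in E15 cells, 33.6 and 21.3 TPM in P3 cells and 97.9, 124 and 77.4 TPM in adult cells, so that the adult lay above both earlier stages for the sum as well.

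Hist1h2al, annotated as a processed pseudogene, was at 5.20 and 8.37 TPM in E15 cells, 0 and 6.31 TPM in P3 cells and 33.9, 59.0 and 42.6 TPM in adult cells. Adult libraries lay above all others, with a log2 difference of 4.06 (SE 0.73) against P3 and 2.56 (SE 0.73) against E15 (limma, Benjamini-Hochberg adjusted p = 0.00625 and 0.0231). Against E15 leaving out either E15 library or adult replicate 2 or 3 ended the call, with adjusted p of 0.172, 0.106, 0.0571 and 0.0519 (limma, Benjamini-Hochberg). It shared 67.6% of its 50-base stretches with 21 other genes, so its level is uncertain. Hist2h2ac did not pass in any comparison, at 13.0 and 6.39 TPM in E15 cells, 7.19 and 4.40 TPM in P3 cells and 5.64, 1.77 and 0.455 TPM in adult cells.

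**Figure D4:**
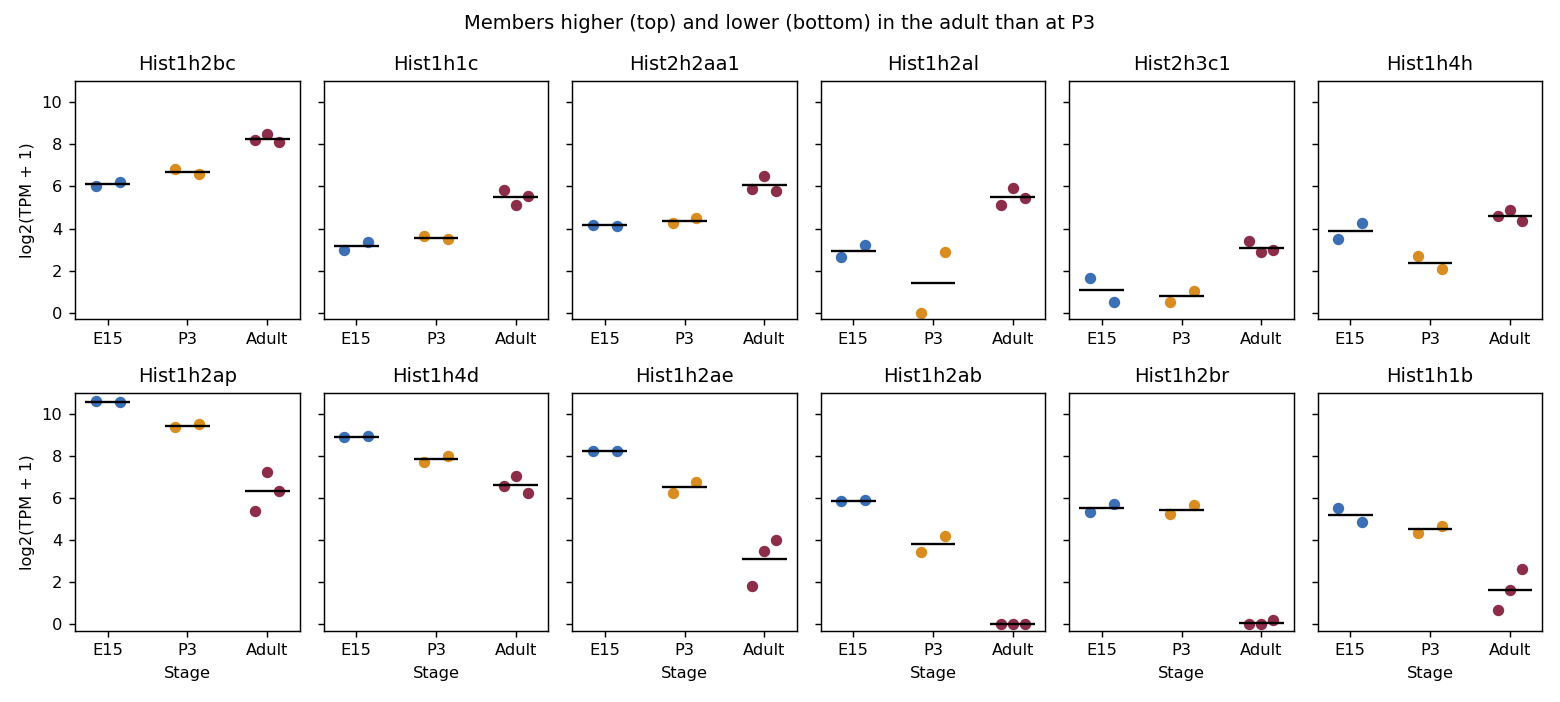
Level of 12 members as log2(TPM + 1) (y axis) at E15, P3 and adult stage; points are libraries and bars are means on that scale. The upper row holds the 6 members higher in the adult than at P3, the lower row 6 of the 17 that were lower, among them Hist1h2ab, at 0 in every adult library.

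In the H2b class, 1 of 16 members rose and 8 fell in the adult against E15, and none was called at P3 against E15. The shares of all genes tested were 15.4% higher and 24.7% lower in the adult, and 6.63% called at P3. Hist1h2bc was at 64.6 and 71.9 TPM in E15 cells, 111 and 93.8 TPM in P3 cells and 294, 363 and 272 TPM in adult cells. The stages followed each other without overlap, and it was the most abundant member in the adult. The log2 difference was 0.57 (SE 0.19) at P3 against E15, which did not pass, 1.58 (SE 0.18) in the adult against P3 and 2.16 (SE 0.18) against E15 (limma, Benjamini-Hochberg adjusted p = 0.122, 0.000948 and 6.76e-05). Both adult calls were kept in every alternative. The gene shared 30.1% of its 50-base stretches with 100 other genes, the most of any member. Its level too therefore rests on how reads were shared in the authors' counting.

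Hist1h2br was the reverse of it. It was at 39.3 and 52.2 TPM in E15 cells, 36.3 and 49.4 TPM in P3 cells and 0, 0 and 0.166 TPM in adult cells, so that its P3 and E15 libraries overlapped, with a log2 difference of -0.10 that did not pass. The adult difference was -5.36 (SE 0.31) against P3 and -5.46 (SE 0.31) against E15 (limma, Benjamini-Hochberg adjusted p = 9.21e-05 and 1.2e-05). It shared 88.7% of its 50-base stretches with other genes and Hist1h2bq shared 97.3%. Hist1h2bq did not pass, at 9.95 and 5.09 TPM in E15 cells, 7.03 and 2.77 TPM in P3 cells and 4.65, 0.237 and 0.944 TPM in adult cells. The pair summed to 49.3 and 57.3 TPM in E15 cells, 43.3 and 52.1 TPM in P3 cells and 4.65, 0.237 and 1.11 TPM in adult cells.

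Hist3h2ba was the most abundant H2b gene at E15, at 90.6 and 145 TPM there, 23.0 and 78.4 TPM in P3 cells and 16.2, 20.1 and 23.3 TPM in adult cells. Its P3 libraries were far apart, and adult replicate 3 lay above P3 replicate 1. The adult difference against E15 was -2.49 (SE 0.47, limma, Benjamini-Hochberg adjusted p = 0.00375, and 0.0651 without E15 replicate 2). The pseudogene Hist3h2bb-ps, at 1.72 and 3.09 TPM in E15 cells, was at 0 in the adult and fell against E15 (limma, Benjamini-Hochberg adjusted p = 0.015, and 0.105 without E15 replicate 2).

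Hist1h2bj was at 11.1 and 11.3 TPM in E15 cells, 9.41 and 9.54 TPM in P3 cells and 1.84, 0 and 0 TPM in adult cells. Earlier libraries were close to each other, and the log2 difference of the adult was -2.89 (SE 0.50) against P3 and -3.10 (SE 0.50) against E15 (limma, Benjamini-Hochberg adjusted p = 0.00536 and 0.00181, and 0.0666 against P3 without P3 replicate 3). Hist1h2bk, at 12.3 and 5.53 TPM in E15 cells, and Hist1h2bg, at 4.11 and 3.85 TPM, were at 0 throughout the adult and fell against both stages. Their calls against P3 were lost in 13 and 10 of 18 alternatives, among them without any one library other than P3 replicate 3 (limma, Benjamini-Hochberg adjusted p from 0.0656 to 0.261 and from 0.0569 to 0.118). Hist1h2bg lost its call against E15 without E15 replicate 1 or 2 (0.0606 and 0.056).

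Hist1h2bn, at 9.63 and 3.57 TPM in E15 cells, and Hist1h2bp, at 9.98 and 8.56 TPM, fell against E15 to 0 throughout the adult for Hist1h2bn and to 0, 0 and 2.50 TPM for Hist1h2bp (limma, Benjamini-Hochberg adjusted p = 0.00954 and 0.0128). Without E15 replicate 1 the adjusted p was 0.104 for Hist1h2bn and 0.102 for Hist1h2bp, and without E15 replicate 2 it was 0.0878 for Hist1h2bp.

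The 7 H2b members that did not pass in any comparison were Hist1h2bb, Hist1h2be, Hist1h2bf, Hist1h2bl, Hist1h2bq, Hist2h2bb and Hist2h2be. Hist1h2bf was at 45.5 and 16.02 TPM in E15 cells, 31.2 and 25.3 TPM in P3 cells and 21.3, 31.1 and 16.6 TPM in adult cells. All stages overlapped, and the log2 difference in the adult against E15 was -0.27 (SE 0.43). Hist1h2bl was at 15.7 and 11.5 TPM in E15 cells, 44.9 and 17.7 TPM in P3 cells and 31.6, 28.7 and 27.3 TPM in adult cells. Every later library lay above both E15 libraries, and the log2 difference was 1.02 (SE 0.41) at P3 against E15, which did not pass, and 1.06 (SE 0.37) in the adult against E15 (limma, Benjamini-Hochberg adjusted p = 0.0502), just outside the threshold. Hist2h2be lay between 5.27 and 11.2 TPM in all 7 libraries, with overlap of all stages.

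In the H3 class, 1 of 9 members rose and 7 fell in the adult against E15, against 15.4% and 24.7% of all genes tested. The riser was Hist2h3c1, at 2.11 and 0.440 TPM in E15 cells, 0.433 and 1.07 TPM in P3 cells and 9.51, 6.33 and 6.83 TPM in adult cells. The adult libraries lay above all others, with a log2 difference of 2.30 (SE 0.44) against P3 and 2.0 (SE 0.44) against E15 (limma, Benjamini-Hochberg adjusted p = 0.00821 and 0.00782). Its call against P3 was lost without P3 replicate 1 or 3 and that against E15 without E15 replicate 2, with adjusted p of 0.067, 0.0538 and 0.0797 (limma, Benjamini-Hochberg). All of its 50-base stretches occur in other genes, so its level is uncertain.

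Hist1h3a was at 5.51 and 3.97 TPM in E15 cells and listed at 0 in all 5 later libraries. It passed the 1 TPM rule only through the E15 libraries. A fall from E15 was therefore set by that rule, and keeping such a call in the alternatives adds no support. It fell at P3 and in the adult against E15 (limma, Benjamini-Hochberg adjusted p = 0.00524 and 0.000614), and was the one P3 call kept in all 18 alternatives that tested it. Hist1h3b, Hist1h3c, Hist1h3d, Hist1h3f and Hist1h3h, at 1.19 to 7.57 TPM in E15 cells, fell in the adult against E15 (limma, Benjamini-Hochberg adjusted p = 0.0109, 0.0139, 0.0292, 0.0185 and 0.011), and Hist1h3c, Hist1h3f and Hist1h3h were at 0 throughout the adult. Without E15 replicate 1 the adjusted p was 0.125 for Hist1h3c, 0.199 for Hist1h3d and 0.109 for Hist1h3h, and without E15 replicate 2 it was 0.108 for Hist1h3b, 0.0857 for Hist1h3d, 0.116 for Hist1h3f and 0.0501 for Hist1h3h (limma, Benjamini-Hochberg). Hist1h3d lost its call in 8 of 18 alternatives, including without adult replicate 1 or 2 (0.0693 and 0.0691).

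Hist2h3b was at 2.21 and 2.71 TPM in E15 cells, 0.921 and 1.24 TPM in P3 cells and 0 in the adult, and fell against P3 and E15 (limma, Benjamini-Hochberg adjusted p = 0.0491 and 0.0031). Against P3 this call was lost in 9 of 18 alternatives, among them without any P3 or adult library (adjusted p from 0.079 to 0.174). Hist1h3e, at 5.28 and 4.93 TPM in E15 cells, 4.57 and 3.92 TPM in P3 cells and 0, 3.57 and 0.643 TPM in adult cells, did not pass in any comparison.

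In the H4 class, 4 of 11 members fell and none rose in the adult against E15, and 1 rose and 2 fell against P3. The 36.4% called against E15 were all lower, against 24.7% of all genes tested that fell and 40.1% called in either direction. The H4 shares against P3, 9.09% higher and 18.2% lower, were near the 8.39% and 13.8% of all genes tested. Hist1h4d held most of the class, at 477 and 488 TPM in E15 cells, 208 and 253 TPM in P3 cells and 94.1, 129.6 and 73.6 TPM in adult cells. The stages did not overlap, and the log2 difference was -1.07 (SE 0.25) at P3 against E15, -1.24 (SE 0.23) in the adult against P3 and -2.31 (SE 0.23) against E15 (limma, Benjamini-Hochberg adjusted p = 0.0434, 0.00723 and 0.00017). The P3 call was lost in 10 of 19 alternatives, among them without any one library other than adult replicates 2 and 3 (adjusted p from 0.0596 to 0.341), and that of the adult against P3 without P3 replicate 3 (0.0924).

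Hist1h4h had a course with its lowest level at P3, at 10.2 and 18.5 TPM in E15 cells, 5.38 and 3.28 TPM in P3 cells and 23.0, 28.3 and 19.2 TPM in adult cells. The adult lay above the other stages and P3 below them, with a log2 difference of 2.21 (SE 0.35) in the adult against P3, of -1.50 (SE 0.38) at P3 against E15 and of 0.71 (SE 0.35) in the adult against E15 (limma, Benjamini-Hochberg adjusted p = 0.00373, 0.0578 and 0.142). Without P3 replicate 3 the first was not past the threshold (0.0537).

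Hist1h4i was at 53.1 and 37.7 TPM in E15 cells, 18.5 and 25.0 TPM in P3 cells and 12.8, 4.45 and 10.8 TPM in adult cells, and fell by 2.25 on the log2 scale in the adult against E15 (SE 0.41, limma, Benjamini-Hochberg adjusted p = 0.00344, and 0.0576 without E15 replicate 1). Hist1h4n was at 22.9 and 3.59 TPM in E15 cells, 5.87 and 5.12 TPM in P3 cells and 0 in the adult, and fell against both stages (limma, Benjamini-Hochberg adjusted p = 0.0176 and 0.00343), the first of which was lost without P3 replicate 1 or 3 (0.109 and 0.125). Hist1h4b, at 1.76 and 2.79 TPM in E15 cells and 0 in the adult, fell against E15 (limma, Benjamini-Hochberg adjusted p = 0.0318), a call lost in 7 of 18 alternatives, among them without any E15 or adult library (0.0586 to 0.18).

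The other H4 members, Hist1h4a, Hist1h4c, Hist1h4f, Hist1h4k, Hist2h4 and Hist4h4, passed in no comparison. Hist4h4, a lone H4 gene outside the other clusters, was at 5.55 and 3.73 TPM in E15 cells, 2.23 and 2.47 TPM in P3 cells and 1.08, 3.19 and 5.69 TPM in adult cells. Hist1h4c was at 10.4 and 25.9 TPM in E15 cells, 6.17 and 14.7 TPM in P3 cells and 5.88, 14.0 and 4.29 TPM in adult cells. For each of them the adult overlapped with at least 1 earlier stage.

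H2a and H2b genes often stand head to head and share a promoter, and 11 such pairs of members had starts 173 to 302 bases apart. Both genes of 7 pairs fell in the adult against E15, for example Hist1h2ap with Hist1h2br and Hist1h2ae with Hist1h2bg, the pair whose promoter is printed above. In that comparison 62.1% of all members and 24.7% of all genes tested fell. Whether paired genes fell together more often than these shares give was not tested. In the other 4 pairs the calls differed or neither passed. Hist1h2ac fell while Hist1h2bc, 251 bases away, rose. Hist1h2ai fell and Hist1h2bl, 279 bases away, did not pass, as with Hist1h2ao and Hist1h2bq. Neither Hist2h2ac nor Hist2h2be passed.

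The annotated 3′ ends and shared sequence were set beside the changes as a description. Of the 13 members with AATAAA in the last 60 bases of an annotated transcript, 2 rose, 5 fell and 6 did not pass in the adult against E15, with a median log2 difference of -0.52. Of the other 45 members, 3 rose, 31 fell and 11 did not pass, with a median of -2.16. All of the members at 0 in every adult library were among these 45, so the groups differ in level as well as in their 3′ ends. Across all genes tested, 15.4% rose and 24.7% fell. The part of the 3′ end in these differences was not tested. With a stem-loop in the annotation, 3 rose and 22 fell of 36, and without one 2 rose and 14 fell of 22. Some annotated transcripts of the latter may end before a stem-loop, so this is a split of annotations. Over all members, a median of 51% of 50-base stretches also occurred in other genes. The 7 members that shared at most 10% were Hist1h1a, Hist1h1b, Hist1h1c, Hist1h1d, Hist2h2be, Hist2h4 and Hist4h4, and of these 1 rose, 3 fell and 3 did not pass.

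Genes that act with replication-dependent histones were compared as lists chosen with earlier results of these data known. Ccne2 is on the processing and S phase lists and Chaf1b on the chaperone and S phase lists, so the counts are not separate. At P3 against E15 no gene of any of the 4 lists passed, with medians of -0.31 for histone mRNA processing and transcription factors, -0.15 for chaperones of new histones, -0.24 for S phase genes and -0.66 for G2 and M phase genes. In that comparison 6.63% of all genes tested passed. Of the processing and transcription factors tested, 9 of 20 fell in the adult against P3, as did 9 of 10 chaperones, 20 of 25 S phase genes and all 25 G2 and M phase genes. The share of all genes tested that fell there was 13.8%. Against E15 these counts were 13, 9, 23 and 25, with medians of -1.27, -1.63, -2.13 and -3.41. Of all genes tested, 24.7% fell against E15, with a median of -0.30. No gene of these lists rose in any comparison.

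Slbp, which binds the stem-loop, was at 128 and 147 TPM in E15 cells, 123 and 148 TPM in P3 cells and 46.3, 90.1 and 40.5 TPM in adult cells. The adult lay below both earlier stages, with a log2 difference of -1.27 (SE 0.32) against P3 and -1.29 (SE 0.32) against E15 (limma, Benjamini-Hochberg adjusted p = 0.0235 and 0.0128). Npat, the transcriptional coactivator of the clusters, lay between 6.89 and 14.7 TPM in all libraries and did not pass. Hinfp, which binds H4 promoters, was lower in the adult against E15, with a log2 difference of -1.85, as were Ccne1 at -1.68, Srrt at -1.65 and Ccne2 at -1.65.

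Among chaperones, Nasp, which escorts H3 and H4, had a log2 difference of -2.59 in the adult against E15, Chaf1b of -2.53, Asf1b of -2.22 and Chaf1a of -2.16, all past the threshold. Pcna, the sliding clamp of DNA replication, was at 367 and 369 TPM in E15 cells, 391 and 444 TPM in P3 cells and 135, 211 and 151 TPM in adult cells. It did not pass at P3 against E15, where its log2 difference was 0.18, and fell by 1.17 in the adult against E15 (limma, Benjamini-Hochberg adjusted p = 0.00211). Mki67, a proliferation marker, was at 49.7 and 41.5 TPM in E15 cells, 20.0 and 33.1 TPM in P3 cells and 1.17, 4.19 and 2.98 TPM in adult cells, with a log2 difference of -3.71 against E15 (limma, Benjamini-Hochberg adjusted p = 0.000297).

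The S phase list summed to 2514 and 2169 TPM in E15 cells, 1826 and 2324 TPM in P3 cells and 505, 853 and 631 TPM in adult cells. Its P3 and E15 libraries overlapped. The histone sum, and the sums of the processing factor, chaperone and G2 and M phase lists, were lower in both P3 libraries than in both E15 libraries. For the G2 and M phase list the sum was 4198 and 3051 TPM in E15 cells, 1853 and 2869 TPM in P3 cells and 211, 374 and 326 TPM in adult cells. Adult replicate 2 was the highest adult library for the S phase sum, for Slbp and Pcna and for the histone sum.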

How the data were processed

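RNA was measured in 7 libraries of sorted cells. The labels' protocols name a column kit for extraction of total RNA and a Bioanalyser check. Build mm9, Bowtie and bcl2fastq are named per the submitters' processing notes. Which program made the expression values, with what annotation and RNA selection, is not stated in the sources used. The authors deposited TPM values, and these entered all calculations unchanged. Depth cannot be read from TPM, and neither intervals nor floors were set.

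Values were set on a log2(TPM + 1) scale, computed here from the deposited TPM. In limma 3.58.1 (R 4.3.3), all 7 libraries were fitted with stage as the only term and a mean-variance trend, with 4 residual and 4.27 prior degrees of freedom. The test covered the 15931 genes that reached 1 TPM in 2 or more libraries, with Benjamini-Hochberg adjustment and a threshold of 0.05. The script was tested on simulated data. Fold changes understate low genes on this scale, and no log2 difference is given for a gene in a comparison where one of its stages is at 0 throughout.

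Members and lists were chosen with earlier results of these data known. Genes named were members past the threshold, the 3 most abundant members of each class, the 3 largest and 3 smallest differences of each comparison, Slbp, Npat, Pcna and Mki67, and up to 4 changed genes of each list. Of the lists, the genes taken by the adult comparison with E15 are named for 2 of them and the rest are given as counts. Other members were named after their values were seen. Transcripts came from GENCODE M21, matched by Ensembl identifier for all 58 members, and promoters from RefSeq GRCm38.p6. Stem-loops were 16 bases long and stretches shared between genes 50 bases long. The alternatives were pseudocounts of 0.1 and 5, other filters, scalings and fits, and leaving out each library. Where a stage was left with 1 library, its spread was taken to equal that of the others.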

Additional observations from a re-analysis of the deposited data

How the results depend on the processing

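No call of a member changed direction in any of 19 alternatives, and of the 70 calls in the 3 comparisons, 31 were kept in every one that tested the member. These 31 include members at 0 throughout a stage, which passed the 1 TPM rule only through other stages. Their direction could not change, so keeping such calls adds no support. Members with a mean under 5 TPM were not tested under the stricter filter, which leaves them 18 alternatives. The share of all genes tested that passed moved between alternatives too. At P3 against E15 it was 6.63%, and it was 5.79% with a pseudocount of 0.1 and 3.87% with a replicate block. In the adult against E15 it was 40.1%, and 52.4% with the stricter filter. At P3 against E15, where 6 members were called, 2 were called with a pseudocount of 0.1 and 3 with a replicate block, and leaving out each library gave 1 to 10. In the adult against P3, where 23 were called, leaving out each library gave 13 to 22. In the adult against E15, where 41 were called, 22 were called with a stricter filter, under which 29 members were tested, and leaving out each library gave 26 to 42. The labels do not say whether replicate numbers pair the libraries. The correlation of deviations between same-numbered libraries lay between -0.0232 and 0.0207. These values show no shared shift over all genes and cannot show that pairing was absent. The replicate block gave 17 member calls in the adult against P3 and 42 against E15, where 15.5% and 34.9% of all genes tested passed.

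With median-of-ratios scaling the median of all genes in the adult against E15 was -0.05 rather than -0.30, and 53.0% rather than 38.5% of all calls were higher. Members then split into 7 higher and 34 lower. In the adult against P3 the share of higher calls was 48.2% rather than 37.9%, and members split into 6 higher and 16 lower. At P3 against E15, 0 were higher and 5 lower. Medians of members depend on the pseudocount: in the adult against E15 the median was -4.0 with 0.1 and -0.83 with 5. The TPM scale limits low genes, since depth is unknown.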
